A study of Caenorhabditis elegans with 4 samples.

Results

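The H3K4me3 regions of chromosome II of Caenorhabditis elegans are described here, as found in the peak lists of a pair of chromatin immunoprecipitation and sequencing (ChIP-seq) samples. All peaks placed on II were taken, 732 of the 4408 peaks of replicate 1 and 538 of the 3280 peaks of replicate 2. Peaks of the lists that overlapped by at least 1 bp were joined, which gave 776 regions on II of 4661 in all. A region with peaks of both lists is called shared, and 473 of the 776 were shared, while 252 held peaks of replicate 1 alone and 51 held peaks of replicate 2 alone. Both samples are whole bodies of the wild-type strain N2, taken as L3 larvae from liquid culture, without treatment or mutation, and immunoprecipitated with a Wako antibody against H3K4me3. The labels name a different input DNA sample as the control of each, and data of the input samples were not analysed here. Whether the replicates came from separate cultures is not given in the sources used here, so their difference may be technical. All positions are on the WormBase WS190 build, to which no gene annotation was at hand, so no region is assigned to a gene.

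Trimethylation of lysine 4 of histone H3 is placed by COMPASS-type methyltransferase complexes, of which SET-2 is the main catalytic subunit in this worm, and it is known from the promoters of transcribed genes. The autosomes of C. elegans have no single centromere. They are known for gene-rich central parts and for arms that are richer in repeats and in meiotic recombination. An L3 larva holds differentiated somatic tissues and a proliferating germ line, so a region in a whole-body sample can come from any of these cells, and how many cells carried the mark cannot be told apart from how strongly each did.

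H3K4me3 on II was mostly in narrow regions that both replicates marked. The list of replicate 1 had 48.0 peaks per Mb on II and that of replicate 2 had 35.3 (mean 41.6 ± 8.99, SD, n = 2), and there were 31.0 shared regions per Mb. Of the peaks of replicate 1 on II, 480 of 732 were overlapped by a peak of replicate 2 (65.6%, 95% Wilson interval 62.1 to 68.9%), against 66.9% over all chromosomes. Of the peaks of replicate 2 on II, 487 of 538 were overlapped by one of replicate 1 (90.5%, 87.8 to 92.7%), against 91.3% over all chromosomes. Both shares were near this background, which includes the X chromosome. The mean share over the 4 other autosomes was 69.0% for replicate 1 peaks and 91.1% for replicate 2 peaks. Peaks covered 7.68% of II in replicate 1 and 6.15% in replicate 2. Intervals cover the counting error of peaks only, and read depths are not known.

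Among the 5 autosomes II had the lowest share of replicate 1 peaks that replicate 2 also held, the others having 66.5% on V to 72.3% on I. For replicate 2 peaks the share on II lay within the range of the others, 86.6 to 93.8%. The density of shared regions on the others ran from 20.7 per Mb on V to 40.4 on III, with a mean of 31.7 ± 9.73 (SD, n = 4 chromosomes), and II was the third of the 5. Shared regions on II were 1733 bp wide in the median (quartiles 1254 and 2438 bp), against medians of 1566 to 1690 bp on the others. In replicate 2, peaks on II had a median width of 1475.5 bp, against 1336.5 to 1467 bp on the others. In replicate 1 the median on II, 1304.5 bp, lay within the range of the others, 1246 to 1345.5 bp. II thus stood first in median width in the list of replicate 2 but not in that of replicate 1. One group of 2 samples allows no test over samples, and no difference between II and other chromosomes was tested.

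Along II, shared regions were sparse near the left, dense in the middle and of intermediate density to the right. II was cut into 1 Mb windows counted from the left end, of which 15 are whole. The densest were window 9 with 53 shared regions, window 12 with 49 and window 8 with 46. The sparsest were windows 2 and 4 with 12 each and window 3 with 15. The median over whole windows was 28 shared regions. Window 1, at the left end itself, held 27 and so was near that median. The low values were not at the tip of the chromosome but further in, between 1000001 and 4000000.

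**Figure D1:**
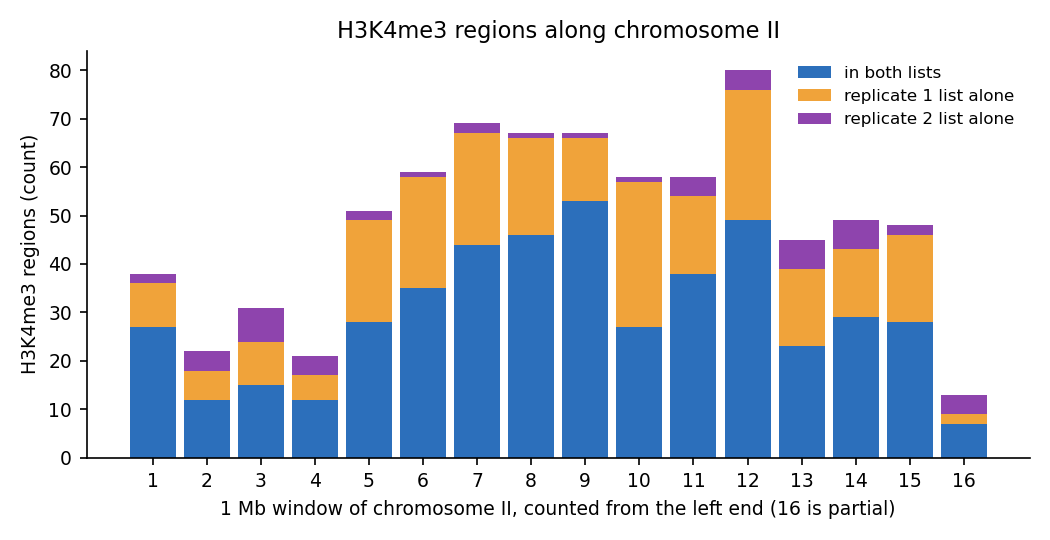
Number of H3K4me3 regions (vertical axis) in each 1 Mb window of chromosome II (horizontal axis), stacked by whether the region was in both lists, in the list of replicate 1 alone or in that of replicate 2 alone. Windows 2 to 4 hold 12, 15 and 12 shared regions, and window 9 holds 53.

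The sparse stretch, picked as the 3 windows with the fewest shared regions, was low in both lists. Its low density and its shares of peaks found depend in part on that choice, which the intervals do not allow for. Its 3 windows held 60 peaks of replicate 1 and 54 of replicate 2, or 20 and 18 per Mb, against 55.2 and 39.4 per Mb in the other 12 whole windows. Shared regions numbered 13 per Mb there and 35.6 elsewhere. Replicate 1 alone had 20 regions in the stretch and replicate 2 alone had 15, which for replicate 2 was 5 per Mb against 2.67 elsewhere. Of the peaks of replicate 2 in the stretch, 72.2% (59.1 to 82.4%) were found in replicate 1, against 93.2% (90.6 to 95.2%) in the other windows. For the peaks of replicate 1 the shares were 66.7% (54.1 to 77.3%) and 65.3% (61.6 to 68.8%).

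Shared regions within the sparse stretch reached high scores about as often as those elsewhere. In both lists the score, a value that the authors' peak caller gave to each peak, has a ceiling of 3100, and the ceiling was reached in both lists by 10 of the 39 shared regions of the stretch (25.6%) and by 102 of 427 elsewhere (23.9%). Score percentiles were taken within each list, with the ceiling as 1 tie, so that a peak at the ceiling has percentile 85.1 in replicate 1 and 90.9 in replicate 2. The median percentile of shared regions was at the ceiling in replicate 1 in the stretch and elsewhere, and in replicate 2 it was 68.1 in the stretch and 59.2 elsewhere. The 3 windows were unlike each other in this respect. In windows 2 and 3 the median percentile in replicate 2 was 70.7 and 71.7, and in window 4 it was 41.4. In replicate 1 it was at the ceiling in windows 2 and 3, but 51.0 in window 4. Window 4 also had the narrowest shared regions of any window, with a median of 1257 bp, and window 2 had the widest, with a median of 2446 bp. Windows 2 and 4 rest on 12 regions each.

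The longest stretches without a peak lay in the left section. II was divided into 3 equal sections of 5.09 Mb for this. The median gap between neighbouring shared regions was 27148.5 bp in the left section, 15778 bp in the middle section and 19643 bp in the right section. Gaps between shared regions of over 100000 bp numbered 17 within the left section, 2 within the middle and 3 within the right. Gaps free of any peak over 100000 bp numbered 11, 1 and 1, and over 50000 bp 32, 18 and 17. Gaps between shared regions over 50000 bp were nearer to even in number, at 33 in the left section, 25 in the middle and 31 in the right. The sections held 97, 207 and 169 shared regions, so the left had the most such gaps for its number of regions. These gaps summed to 3928, 1776 and 2337 kb. Each gap free of any peak or over 50000 bp was placed by the region at its left edge. The longest stretch without any peak of either list ran for 240893 bp, between 1776169 and 2017063. The next were 191018 bp after 913904, 160796 bp after 1502900, 143835 bp after 2059708 and 128250 bp after 3554526. All 5 lay in the left section, and 3 of the 5 had a region of replicate 1 alone at their left edge. The longest gap between shared regions was 362278 bp and lay in window 4. Over II as a whole the median gap was 18219.5 bp, within the range of the other autosomes, 14408 bp on III to 27112 bp on V. Between neighbouring peaks of a single list it was 9045 bp in replicate 1 and 16308 bp in replicate 2.

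**Figure D2:**
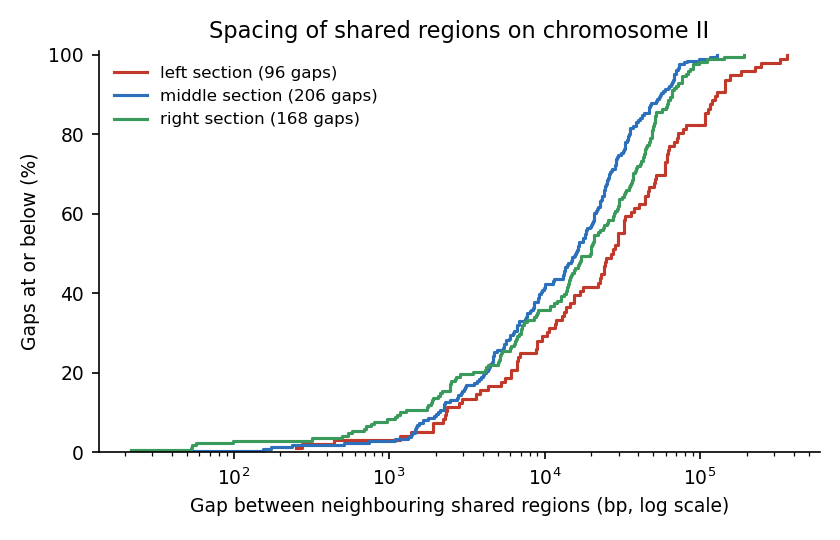
Cumulative share of gaps between neighbouring shared regions of chromosome II (vertical axis, percent) by gap length (horizontal axis, bp, log scale), for the left, middle and right section. Except among the shortest gaps, the curve of the left section lies to the right of the others. Its median is 27148.5 bp, against 15778 bp in the middle section and 19643 bp in the right section.

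The left side of II was sparser than its right side, and the imbalance was the largest among the 5 autosomes. The left section of II held 97 shared regions (19.1 per Mb), the middle section 207 (40.7 per Mb) and the right section 169 (33.2 per Mb). The ratio of left to right density was 0.574 in shared regions, 0.574 in the whole list of replicate 1 and 0.582 in that of replicate 2. On III the ratio in shared regions was 0.796, and on the remaining autosomes it was above 1, up to 1.36 on IV. In each list alone, II again had the lowest ratio of the 5, with III next at 0.761 in replicate 1 and 0.783 in replicate 2. The left section held 20.5% of the shared regions of II, against 25.9 to 33.5% on the others. The ratio of the middle section to the mean of the outer sections was 1.56 on II, against 1.43 on III to 1.88 on V, and so did not set II apart. How many genes each section holds was not taken into account.

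Stretches as sparse as that of II were present on other autosomes. The lowest sum over 3 neighbouring whole windows was 39 shared regions on II, 38 on IV and 30 on V, against 75 on I and 78 on III. Whole windows with 15 or fewer shared regions numbered 3 of 15 on II, 3 of 17 on IV, 8 of 20 on V and none on I and III, which have 15 and 13 whole windows.

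**Figure D3:**
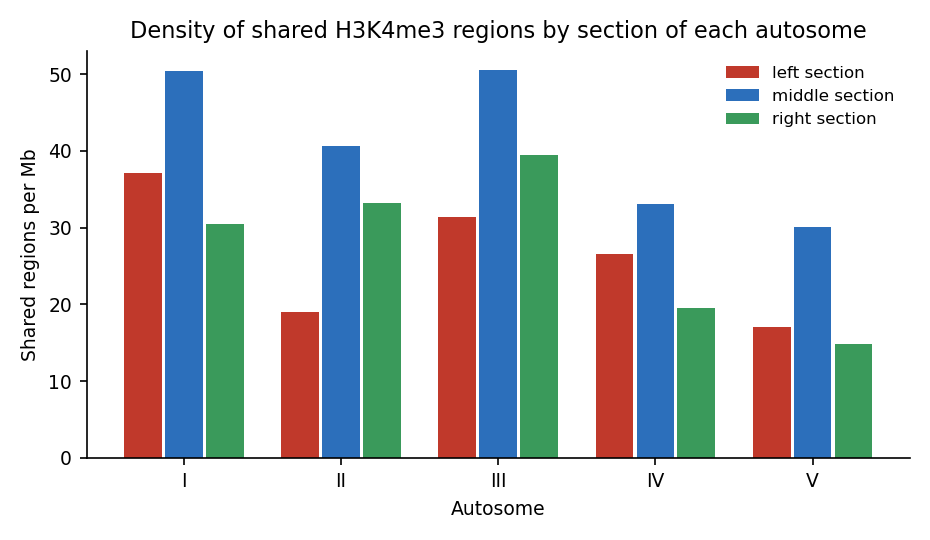
Shared H3K4me3 regions per Mb (vertical axis) in the left, middle and right section of each autosome (horizontal axis). On chromosome II the left section has 19.1, the middle section 40.7 and the right section 33.2 regions per Mb.

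As a whole, the peaks of the left section ranked lower than those of the middle section, but its shared regions did not. The median percentile of all peaks was 48.7 in the left section, 56.3 in the middle and 48.1 in the right in replicate 1, and 48.2, 58.0 and 53.6 in replicate 2. The share of peaks at the ceiling was close to even, at 33.6, 34.6 and 32.1% in replicate 1 and at 22.2, 21.4 and 20.9% in replicate 2. In replicate 2 the median percentile of shared regions was 63.3 in the left section, 58.8 in the middle and 62.1 in the right. In replicate 1 it was at the ceiling in the left and middle sections, which cannot be ranked there, and 69.7 in the right. Shared regions at the ceiling in both lists made up 26.8% in the left section (26 regions), 22.2% in the middle (46) and 24.9% in the right (42). Shared regions of the left section had a median width of 1608 bp, against 1770 bp in the middle and 1780 bp in the right. On II as a whole, both lists were at the ceiling in 24.1% of shared regions, against 17.9 to 24.6% on the other autosomes.

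Broad regions, with a joined width over 5 kb, were 15 of the 473 shared regions of II (3.17%), against 2.23% over all chromosomes. Broad H3K4me3 domains are known in other animals from highly transcribed genes and from genes of cell identity. Of the 15 on II, the right section held 8, the middle section 5 and the left section 2. Windows 10 to 12, picked after these values were seen, held 9 of the 15 and 105 of the other 458 shared regions. The other autosomes had 6 broad regions on IV to 14 on V, and II had 9.83 per 10 Mb, against 3.43 on IV to 9.44 on III. As a share of shared regions II was the second, since V had 3.25%. The threshold fell between the fifteenth region of 5230 bp and the next widest of 4881 and 4852 bp. All 15 held a peak over 5 kb in replicate 1, and 7 of them held one in replicate 2. In replicate 2, peaks over 5 kb numbered 7 on II and 9 on III, so that II was not the first in that list.

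The widest, at 13816910 to 13828879 in the right section, measured 11970 bp. It was 1 peak of 11964 bp in replicate 1 and 3 peaks covering 11388 bp in replicate 2, the widest of them 7077 bp, and was at the ceiling in both. The second, at 10541352 to 10550250, measured 8899 bp and held 2 peaks in each list, the widest of 5276 and 5022 bp. The third, at 8124291 to 8132030 (7740 bp), was 1 peak in replicate 1 and 2 peaks in replicate 2, which covered 7541 and 7593 bp. The fourth, at 7677151 to 7684771 (7621 bp), was shifted between the lists, with 6500 bp in replicate 1 and 7159 bp in replicate 2. These 4 covered over 5 kb in both lists, whereas the fifth and the sixth did not.

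The fifth, at 10497584 to 10504570, was 6987 bp wide at the ceiling in replicate 1, but only 1499 bp with a score of 222.48 in replicate 2. The sixth, at 1145442 to 1152387, is the widest of the left section and was weak in both lists. It scored 111.48 over 6914 bp in replicate 1 and 135.78 over 2429 bp in replicate 2, or percentiles 15.7 and 21.9. It was the only broad region below the ceiling in replicate 1. The other broad region of the left section, at 1233219 to 1238694 (5476 bp), covered 2869 bp in replicate 2. Both broad regions of the left section lay in window 2, the one with the largest median width.

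The remaining broad regions lay in the middle and right sections. Among the 10 widest were 9886642 to 9893265 (6624 bp, of which 4109 bp in replicate 2), 11745654 to 11752197 (6544 bp, at the ceiling in both lists), 11614813 to 11620949 (6137 bp) and 10924912 to 10930955 (6044 bp, of which 5869 bp in replicate 2). The next, at 11975214 to 11981223 (6010 bp), covered 5963 bp in replicate 1 and 5933 bp in replicate 2 and was at the ceiling in both. In 13 of the 15, replicate 1 covered more bases than replicate 2. The bases covered in replicate 2 were 21.5 to 110% of those in replicate 1, with a median of 90.2%. The 15 regions made up 8.69% of the bases in peaks of II in replicate 1 and 8.68% in replicate 2. Of the 15, 5 were at the ceiling in both lists (33.3%), against 109 of the other 458 (23.8%).

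**Figure D4:**
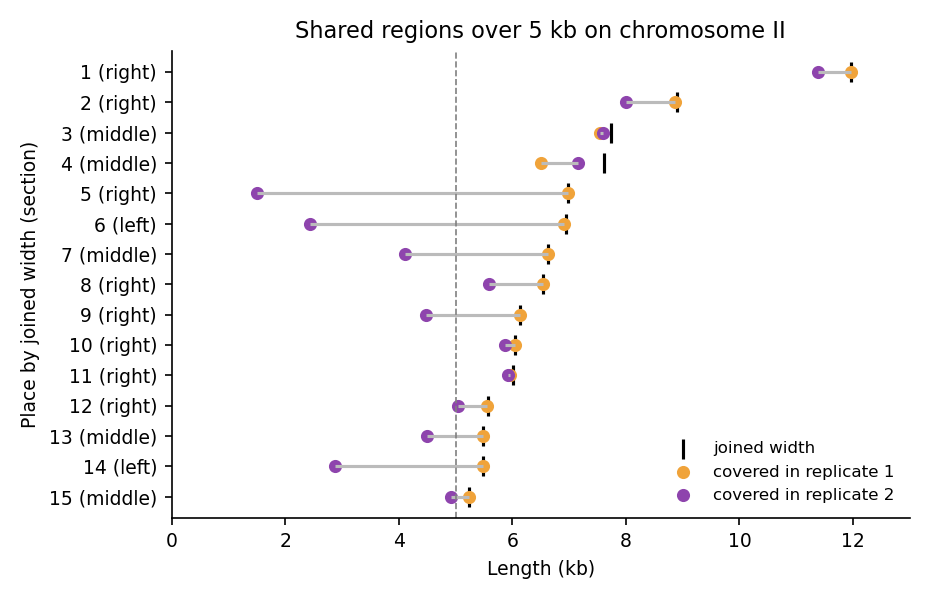
Length in kb (horizontal axis) of the 15 shared regions of chromosome II with a joined width over 5 kb, in order of joined width (vertical axis, with the section of the chromosome). Points give the bases covered by peaks of replicate 1 and replicate 2, vertical ticks the joined width, and the dashed line 5 kb. The fifth and sixth regions cover 6987 and 6914 bp in replicate 1, but 1499 and 2429 bp in replicate 2.

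The edges of most shared regions lay close together in the lists. A single peak in each list made up 455 of the 473 shared regions. In these, the starts differed by a median of 64 bp and the ends by a median of 53 bp, and 25% of starts differed by more than 159 bp. The overlap made up a median of 95.2% of the peak of replicate 1 and 98.7% of that of replicate 2. The peak was wider in replicate 1 in 279 regions and wider in replicate 2 in 175, with a median log2 ratio of 0.04. In 20 of the 455 the widths differed by more than a factor of 2, with the peak of replicate 1 the wider one in 14. Among the other 18 regions, 10 held 1 peak of replicate 1 and 2 of replicate 2, and 5 held 2 of replicate 1 and 1 of replicate 2. The narrowest shared regions of the left, middle and right section were 748 bp at 2504478 to 2505225, 777 bp at 5505893 to 5506669 and 771 bp at 14496377 to 14497147. Their scores in replicate 2 were 117.14, 55.06 and 51.23, in a list whose lowest score is 50.01.

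Score ranks followed each other between the lists. Spearman's rho over the 473 shared regions was 0.878, and 0.818 over the 229 regions at the ceiling in neither list. On the other autosomes rho ran from 0.857 on V to 0.906 on I. These are values across regions of the same 2 samples, and width and score of a region share the same reads. Both lists were at the ceiling in 114 regions, replicate 1 alone in 130 and replicate 2 alone in none. Of the 359 regions that were not at the ceiling in both, 350 had the higher percentile in replicate 1 and 9 in replicate 2, with a median difference of 15.1 (interquartile range 10.0 to 21.3). Percentiles are ranks in lists of different lengths, 4408 and 3280 peaks, so the sign of this difference is no measure of the amount of H3K4me3. On the other autosomes the median difference was 14.2 to 14.9.

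**Figure D5:**
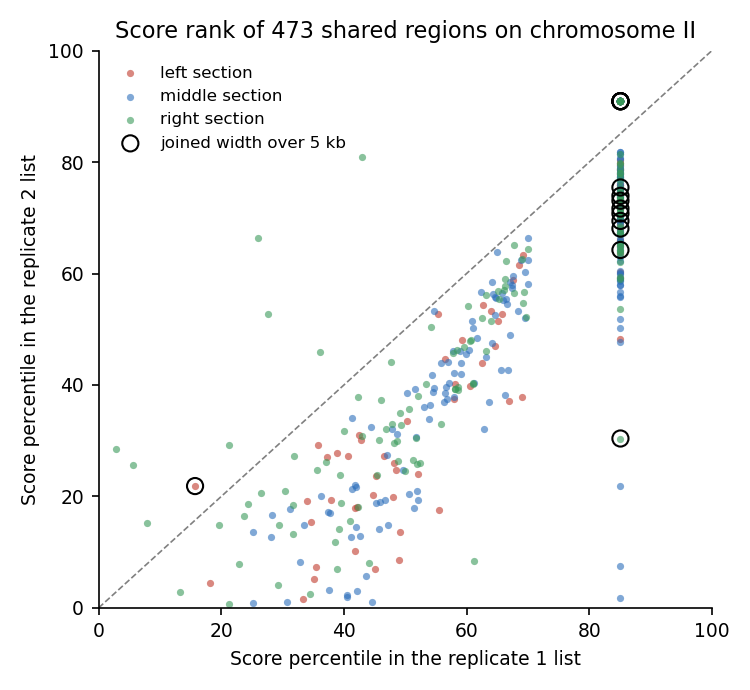
Score percentile of each of the 473 shared regions of chromosome II in the list of replicate 1 (horizontal axis) and of replicate 2 (vertical axis), coloured by section of the chromosome. Circles mark joined widths over 5 kb, the dashed line marks equal percentiles, and the column of points at 85.1 is the ceiling of replicate 1, which replicate 2 meets at 90.9.

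A few regions departed from this order. The largest shift towards replicate 1 was at 6709603 to 6712332, at the ceiling in replicate 1 and with a score of 52.63 in replicate 2, or percentiles 85.1 and 1.71. Its right neighbour at 6713983 to 6716453, 1650 bp away, was at the ceiling in replicate 1 and scored 66.31 in replicate 2 (percentile 7.56). The next were 6560216 to 6563547, at the ceiling and 135.81, the broad region at 10497584 described above, and 11889350 to 11891026 with 1884.81 and 69.05. Towards replicate 2 the largest shift was at 11015336 to 11016635, with scores of 193.39 in replicate 1 and 1545.12 in replicate 2 (percentile 66.5 in replicate 2). It was followed by 12843350 to 12846430 with 558.77 and 2955.35, by 15217889 to 15219283 with 58.25 and 197.20, by 12931562 to 12933456 with 212.68 and 802.92, and by 10201191 to 10202820 with 66.53 and 166.83. All 5 lay in the right section, which held 8 of the 9 regions with the higher percentile in replicate 2, the ninth being the weak broad region of the left section.

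Regions in a single list were weak and mostly small. The 252 regions of replicate 1 alone had a median percentile of 18.4, a median score of 129 and a median width of 865 bp, and none was at the ceiling. The 51 of replicate 2 alone had a median percentile of 9.36, a median score of 71.3 and a median width of 1083 bp. Only 4 of the 252 and none of the 51 lay above the median score of their own list. Of the former, 24 lay within 500 bp of a shared region, and of the latter 3. The number in a single list depended on list length, and fell from 303 to 153 when the list of replicate 1 was cut to the length of that of replicate 2. The median distances of the one-list regions to the nearest shared region were 6559.5 and 13395 bp.

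The kinds of one-list region were placed differently along II. Replicate 1 alone had 53 regions in the left section, 109 in the middle and 90 in the right, and replicate 2 alone had 19, 7 and 25. The outer sections thus held 56.7% of the former and 86.3% of the latter. On the other autosomes the outer sections held 47.9 to 60% of the regions of replicate 1 alone and 68.1 to 90.2% of those of replicate 2 alone, so the same direction was seen there. Peaks of replicate 2 were found in replicate 1 in 83.8% of cases in the left section (76.0 to 89.4%), 96.8% in the middle (93.6 to 98.5%) and 87.6% in the right (82.3 to 91.4%). The corresponding shares of replicate 1 peaks were even, at 65.1, 65.4 and 66.0%.

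Peaks of low rank were found unevenly across the sections. Of the replicate 2 peaks under percentile 20, 30 of 33 in the middle section were found in replicate 1 (90.9%, 76.4 to 96.9%), against 15 of 30 in the left section (50%, 33.2 to 66.8%) and 23 of 43 in the right (53.5%, 38.9 to 67.5%). On the other autosomes together these shares were 84.4% in the middle sections, 63.5% in the left and 56.1% in the right. Of the replicate 1 peaks under percentile 20, none of 52 in the middle section of II was found in replicate 2, which allows a share of up to 5.77% when 3 of 52 is taken as the limit of a count of 0, and 6.88% by the Wilson interval. In the left section 4 of 35 were found (11.4%) and in the right 6 of 56 (10.7%), and on the other autosomes the shares were 18.8% in the left sections, 9.70% in the middle and 8.50% in the right. At percentiles 20 to 40 the spread between sections was wider in replicate 1, where 32.1% were found in the left section, 20.7% in the middle and 43.6% in the right. For replicate 2 the shares at these percentiles were 82.6, 93.8 and 87.8%. The middle section of II thus had the highest share in replicate 2 and the lowest in replicate 1. Its intervals overlapped those of the other sections. On the other autosomes the left, middle and right shares in replicate 1 were 45.3, 34.4 and 38.7%, with the middle again lowest. In replicate 2 they were nearly even there, at 91.3, 91.3 and 90.4%. At percentiles 40 to 60, 83.8% of replicate 1 peaks and 97.9% of replicate 2 peaks of II were found in the other list. At the ceiling all 245 peaks of replicate 1 and all 115 of replicate 2 were found.

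Window 10, in the middle of II, was the one with most regions in replicate 1 alone. It held 30 of these, against 27 shared regions and 1 of replicate 2 alone. Of its 57 peaks of replicate 1, 47.4% were found in replicate 2, the lowest share of any window, against 80.3% in window 9 beside it. Its shared regions were high in rank, with a median percentile of 73.7 in replicate 2 and 11 of 27 at the ceiling in both lists. Peaks covered 9.35% of the window in replicate 1 and 5.35% in replicate 2. The regions of replicate 1 alone in this window had a median percentile of 23.2.

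The highest-scoring regions in a single list were few and partly lay side by side. In replicate 1 the first was at 10527343 to 10532129 (4787 bp) with a score of 2825.45, or percentile 68.6, and replicate 2 had no peak within 5452 bp of it. The second and the fourth were neighbours 6 bp apart, at 7533158 to 7534793 with 2582.35 and at 7530868 to 7533151 with 1100.50. The third was at 572959 to 574277 with 1377.23, and 573 bp to its left lay another region of replicate 1 alone, at 570274 to 572385 with 864.56. The fifth was at 4280435 to 4282018 with 881.89. In replicate 2 the highest were at 6020826 to 6023427 with 595.85, at 6252844 to 6255725 with 470.26, at 3245048 to 3246197 with 379.99, at 12493547 to 12494799 with 295.54 and at 10012786 to 10016396 with 209.61. The one at 3245048 lay 125213 bp from any other region, within the sparse stretch, whereas the one at 6252844 lay 300 bp from a peak of replicate 1.

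A stretch of the right section gathered several of these departures and was chosen after its values were seen. From the broad region at 10497584 to the one ending at 10550250 there were 7 regions. The first was at the ceiling in replicate 1 and at 222.48 in replicate 2. The next 4 were in replicate 1 alone, at 10504670, 10521488, 10522226 and 10527343, with scores of 517.61, 69.66, 488.24 and 2825.45. The sixth, at 10537499 to 10538677, was shared with 662.17 and 150.15, and the seventh was the second widest region of II, with the ceiling and 2335.05. The lists thus differed over the left part of this stretch and had the broad region at its right end in common. At 6707856 to 6717494 a shorter run of the same kind held the largest 2 shifts between 2 regions of replicate 1 alone, with 247.43 and 93.96.

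Neighbouring shared regions were at times nearly in contact. Gaps under 500 bp separated 15 of the 472 neighbouring pairs of shared regions on II. Such pairs numbered 20 of 591 on I, 34 of 556 on III, 15 of 461 on IV and 14 of 430 on V. They were thus not particular to II. Of the 15 on II, 7 lay within the right section, 4 within the middle and 3 within the left. The closest were 22 bp apart, at 6488742 to 6491391 and 6491414 to 6493762, both at the ceiling in replicate 1 and with scores of 3100 and 1806.79 in replicate 2. Another pair 22 bp apart was at 12677046 to 12679480 and 12679503 to 12680419, with scores of 3100 and 2290.86 in replicate 2. The next pairs, 53, 54 and 57 bp apart, began at 12423374, 11039685 and 10819318. In the pair that begins at 11039685 the scores were unequal, with 231.93 and 3100 in replicate 1 and 92.73 and 2531.41 in replicate 2. The order within this pair was the same in both lists.

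Other shared regions stood alone. A distance of over 20 kb to any other region was found for 49 of the 473 (10.4%), against 7.77% on I to 17.6% on V. The left section held 18 of them (18.6% of its shared regions), the middle 12 (5.80%) and the right 19 (11.2%). The most isolated, at 3682777 to 3683673 in the sparse stretch, lay 123888 bp from its nearest neighbour, was 897 bp wide and scored 379.50 and 181.93. The next were at 9485469 to 9487626 (67908 bp, with scores of 2024.47 and 247.93), 2638087 to 2638888 (66883 bp), 9415815 to 9417560 (62240 bp, at the ceiling in both lists) and 7944421 to 7945537 (50460 bp). Isolation was thus found for weak and for strong regions.

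Most strong regions had no strong region directly beside them, and the others formed short runs. Of the 114 shared regions at the ceiling in both lists, 70 had no such region as a direct neighbour among shared regions. There were 14 runs of 2, 4 runs of 3 and 1 run of 4, which spanned 41928 bp from 5621763 to 5663690 in the middle section. Regions at the ceiling in both lists made up 24.1% of the shared regions of II. Whether the runs exceeded those of a random order was not tested. The longest run of 3, from 13724838 to 13873596, spanned 148759 bp and held the widest region of II. At the left end of II, the first peak, of replicate 2 alone, was listed from -110 to 743 with a score of 60.49, so its start as deposited lies before the first base. The first shared regions were at 18738 to 20048 and 22848 to 25446, the latter at the ceiling in replicate 1 and at 1501.05 in replicate 2. At the right end, the last shared region, at 15232577 to 15233766, reached the ceiling in both, and after it came 1 weak region of each list alone, the last ending at 15259255.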

How the data were processed

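The deposited files are 1 peak list per ChIP sample, so peaks were called per sample. Per the file headers, positions are on WormBase WS190. Reads were aligned with BWA, per the submitters' processing notes. Both MACS and MA2C are named in the lists. The sources used here do not give the version or thresholds of the caller. The deposited score of each peak is the authors' own value on a scale that is not named, from 50.01 to a ceiling of 3100 that was treated as 1 tie together with the few values above it. The other deposited values are starts and ends in bp. No read counts were used, so depth is unknown and a missing peak does not show that the mark was absent.

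Peaks overlapping by 1 bp or more were joined with Python 3.11.15, numpy 2.4.6, pandas 2.3.3 and scipy 1.17.1, and the joining was tested on simulated data. Score percentiles are 100 times the mean rank over the number of peaks in the list. The span of II runs from its first base to the end of its last peak, 15.3 Mb, and stands in for its length. A region was placed by its midpoint. Shares have 95% Wilson intervals. No test was made between chromosomes or parts of them. The regions described were the 10 widest, the widest and narrowest of each section, the 5 highest-scoring of each list alone, the 5 longest gaps, the 5 largest shifts in percentile in each direction, the 5 closest pairs, the 5 most isolated regions and the 3 densest and sparsest windows. The first and last regions, the eleventh and the fourteenth widest, window 10 and the stretches of neighbouring departures were added after their values were seen. The chromosome, its regions, the lists and these rules were chosen with earlier results of these data known. Alternatives were other overlaps, score thresholds, list lengths, merging of close peaks, limits of the parts, and each list alone.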

Additional observations from a re-analysis of the deposited data

How the results depend on the processing

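Of 45 alternative values for 12 results, 22 stayed within a set limit, 23 moved further and 0 changed direction. The limit was 1.5 times for numbers of regions, the 95% interval for shares and rho, and 1 SD between the lists for the rest. Counts, shares, densities, widths and gaps have no direction that could change. With a reciprocal overlap of 50%, 61.5% of replicate 1 peaks and 83.6% of replicate 2 peaks were found in the other list. With each list limited to its upper 50% of scores, these shares were 78.3 and 98.99%, the density of shared regions 18.9 per Mb, the ratio of middle to outer sections 1.66 and that of left to right 0.580. With a middle section of 50% of the span, these ratios were 1.66 and 0.548. With the list of replicate 1 cut to the length of that of replicate 2, the ratio of left to right was 0.597 and regions in a single list numbered 153. With either replicate left out no region can be shared, so these values are for all peaks of the remaining list. Their density ranged from 35.3 to 48.0 per Mb, the ratio of middle to outer sections from 1.38 to 1.51. That of left to right ranged from 0.574 to 0.582. The median peak width ranged from 1304.5 to 1475.5 bp and the median gap from 9045 to 16308 bp. Peaks over 5 kb numbered 7 without replicate 1 and 15 without replicate 2. Regions over 5 kb numbered 7 when both lists had to hold such a peak, 23 with peaks closer than 500 bp merged, and 33 with a threshold of 4 kb. Bases covered by both lists had a median of 1410 bp per region. Without regions at the ceiling, rho was 0.818. A span from the first peak changed nothing, since that peak reaches the first base. No paired analysis was possible because the ChIP samples form a single group. Depth is unknown, so its effect on weak peaks was not measured.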
